A study of Mus musculus with 7 samples.

Results

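The accessory loops of the circadian clock were followed in the arthritic mouse ankle through 9 genes: the PAR bZIP factors Dbp, Tef and Hlf, their antagonist Nfil3, the nuclear receptors Nr1d1, Nr1d2 and Rora, and the DEC factors Bhlhe40 and Bhlhe41. They were taken by symbol from the 27179 genes of the expression matrix, and all 9 passed the filter for testing, a mean of at least 1 FPKM over the 7 libraries, as did 13418 genes in all. FPKM is the number of reads assigned to a gene, scaled to its exon length and to the depth of the library. The genes were proposed with results of this same comparison known, so their differences between the groups are a description, not a test.

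The tissue was the whole ankle of the DBA1 mouse in collagen-induced arthritis, in which an immune response to collagen inflames the joints. The ankles had received an injection into the joint of either a miR-17-5p mimic in a lipid carrier (the mimic group, n = 4, replicates 1, 2, 4 and 5) or an irrelevant control microRNA in the same carrier (the control group, n = 3, replicates 2, 3 and 5). The skin was removed before RNA extraction. The sources used here do not tell whether a group's ankles are from different mice, nor the age and sex of the mice or the hour of dissection, so errors and p-values cover only the spread among these libraries, which may be technical. Each library held from 27465276 to 31118975 assigned reads.

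The clock runs on a loop in which CLOCK and BMAL1 (encoded by Arntl) switch on genes through E-box elements, and the PER and CRY proteins made from those genes switch CLOCK and BMAL1 off. The genes described here form side loops. DBP, TEF and HLF, named for a domain rich in proline and acidic residues, activate genes through D-box elements, and NFIL3 (E4BP4) represses through the same elements. The heme-binding receptors REV-ERB alpha and beta (Nr1d1 and Nr1d2) repress, and ROR alpha (Rora) activates, through a shared element, with Arntl and Nfil3 among the known targets. DEC1 and DEC2 (Bhlhe40 and Bhlhe41) repress E-box genes. In many tissues Dbp and Nr1d1 peak at a time of day when Arntl is low.

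A promoter window, from 250 bases before to 50 after the annotated start, was held in RefSeq's table (GRCm38.p6) for 8 of the 9 genes. The stretches below show where the letters of a clock element were found, since these elements are how the loops are wired to each other. Capitals mark the match, on the gene's own strand.
Tef, first start, chr15:81802506-81802591, plus strand, E-box letters 127 bases before the start: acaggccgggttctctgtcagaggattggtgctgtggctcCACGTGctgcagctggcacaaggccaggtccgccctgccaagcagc
Tef, further start, chr15:81811236-81811321, plus strand, E-box letters 138 bases before the start: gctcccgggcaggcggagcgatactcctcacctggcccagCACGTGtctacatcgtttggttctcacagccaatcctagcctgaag
Bhlhe41, chr6:145865528-145865613, minus strand, E-box letters 153 bases before the start: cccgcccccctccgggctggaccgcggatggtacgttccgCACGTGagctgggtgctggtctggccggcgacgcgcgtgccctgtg
Nfil3, chr13:52981005-52981091, minus strand, REV-ERB and ROR element read on the opposite strand, 12 bases before the start: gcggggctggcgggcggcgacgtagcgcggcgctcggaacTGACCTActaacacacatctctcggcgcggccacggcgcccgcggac

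Each motif was searched on both strands. A gene was counted where any of its windows held the letters, while the shares given beside it are of single windows. A gene with further starts, such as Tef, therefore had more chances of a match. The E-box CACGTG stood in the windows of 2 of these genes (Tef and Bhlhe41), and 7.15% of the 32851 windows in the table held it. TAGGTCA, the REV-ERB and ROR element, stood in the window of 1 gene (Nfil3), beside 2.61% of all windows. Its core AGGTCA, which overlaps it, stood in those of 2 genes (Nfil3 and Nr1d2), beside 16.3%. The D-box, searched as TTATGTAA, TTACGTAA or TTACATAA, stood in none of them (0 of 8), beside 1.06% of all windows, which says only that these letters are not in these windows. Of 10 core clock genes with a window, the E-box letters were found in Ciart, Cry1 and Per1, the D-box in Per3 and the REV-ERB and ROR element in Arntl. A match is a description of letters and not evidence of binding.

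Of the 7 libraries, control replicate 5 stood apart in epidermal transcripts. Its 5 keratinocyte markers (Krt5, Krt14, Krt10, Krt1 and Lor) summed to 80.5 FPKM, against 1.35 to 1.68 in mimic ankles and 1.04 and 1.13 in the other controls. The 10 skeletal muscle markers summed to between 2835 and 10707 FPKM in mimic ankles and between 1213 and 7238 in control ankles, with all 10 means higher in the mimic group and the groups overlapping. All 8 adipocyte markers had higher means in mimic ankles, with sums of 842 to 1145 FPKM against 514 to 833, and the groups did not overlap. All 8 neutrophil markers had lower means in mimic ankles, with sums of 1238 to 3070 FPKM against 2935 to 5749. The 5 osteoblast markers summed to 7851 to 8382 FPKM in mimic ankles and 7195 to 7462 FPKM in control ankles, with all 5 means higher in the mimic group. The 5 osteoclast markers summed to 2024 to 2224 FPKM in mimic ankles and 2544 to 2682 FPKM in control ankles, with all 5 means lower, and neither of these sums overlapped between the groups. All 6 erythroid markers had higher means in mimic ankles (sums of 217 to 1720 FPKM, against 153 to 655 in control ankles). So did all 6 cartilage markers, and the sums of both lists overlapped. Of the 5 synovial fibroblast markers, 1 had a higher mean in mimic ankles, and of the 6 natural killer and T cell markers 0 had. The sums of these lists overlapped as well, at 4.72 to 12.0 FPKM in mimic ankles and 7.74 to 11.1 in control ankles for natural killer and T cells. No marker of these lists was at 0 throughout. In whole tissue, fewer cells of a type and less RNA per cell cannot be told apart.

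The PAR bZIP genes had the largest differences between the groups among the 9. Dbp stood at 43.8, 53.9, 64.0 and 60.5 FPKM in mimic replicates 1, 2, 4 and 5, against 40.8, 20.1 and 13.2 FPKM in control replicates 2, 3 and 5. Every mimic library lay above every control library, but the margin to control replicate 2 was small, and controls 3 and 5 held the low values. The means were 55.5 ± 8.89 FPKM (SD, n = 4) in mimic ankles and 24.7 ± 14.4 FPKM (SD, n = 3) in control ankles, a log2 fold change of 1.29 (SE 0.34) on the log2(FPKM + 0.5) scale. Dbp lies on chromosome 7, 45705247 to 45710203 (mm10). Of its 1678 counted exon bases, 539 (32.1%) are shared with Sphk2, a sphingosine kinase gene on the opposite strand, and without a stated strand setting reads there cannot be told apart. Sphk2 itself stood at 9.19 to 11.8 FPKM in mimic ankles and 11.6 to 12.0 FPKM in control ankles.

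Tef (chromosome 15, 81802673 to 81826863) had the same shape. Its values were 49.1, 58.0, 51.9 and 48.5 FPKM in mimic ankles, against 47.2, 20.7 and 18.9 FPKM in control replicates 2, 3 and 5. The mimic ankles lay close together, and control replicate 2 was closer to all of them than to the other controls. The log2 fold change was 0.95 (SE 0.29), from means of 51.9 ± 4.37 FPKM in mimic ankles and 28.9 ± 15.8 FPKM in control ankles.

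Hlf (chromosome 11, 90336535 to 90390917) was the scarce member of the family. It stood at 2.87, 2.63, 3.88 and 2.05 FPKM in mimic ankles, against 1.89, 0.688 and 1.00 FPKM in control replicates 2, 3 and 5. The groups did not overlap, control replicate 2 was again the highest control, and the gap to mimic replicate 5 was narrow. The log2 fold change was 1.02 (SE 0.27). It rests on 107 reads in the poorest library, where counting alone gives an error of about 9.67%. Summed over the family, Dbp, Tef and Hlf gave 95.8 to 120 FPKM in mimic ankles and 33.1 to 89.9 FPKM in control ankles.

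Nfil3, the repressor that competes for the D-box, had the opposite order. Its values were 10.9, 18.6, 19.9 and 10.4 FPKM in mimic ankles, against 22.4, 22.6 and 29.9 FPKM in control replicates 2, 3 and 5. Here control replicate 2 sat with control 3, unlike its place for the PAR bZIP genes, and mimic replicates 1 and 5 held the low values. The means were 15.0 ± 5.01 FPKM in mimic ankles and 25.0 ± 4.26 FPKM in control ankles, a log2 fold change of -0.77 (SE 0.25). Within each library the ratio of Dbp to Nfil3 was 2.89 to 5.79 in mimic ankles and 0.443 to 1.82 in control ankles. Since Dbp was separate and higher, and Nfil3 separate and lower, this ratio could not overlap. Nfil3 lies on chromosome 13, 52967209 to 52981039.

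**Figure D1:**
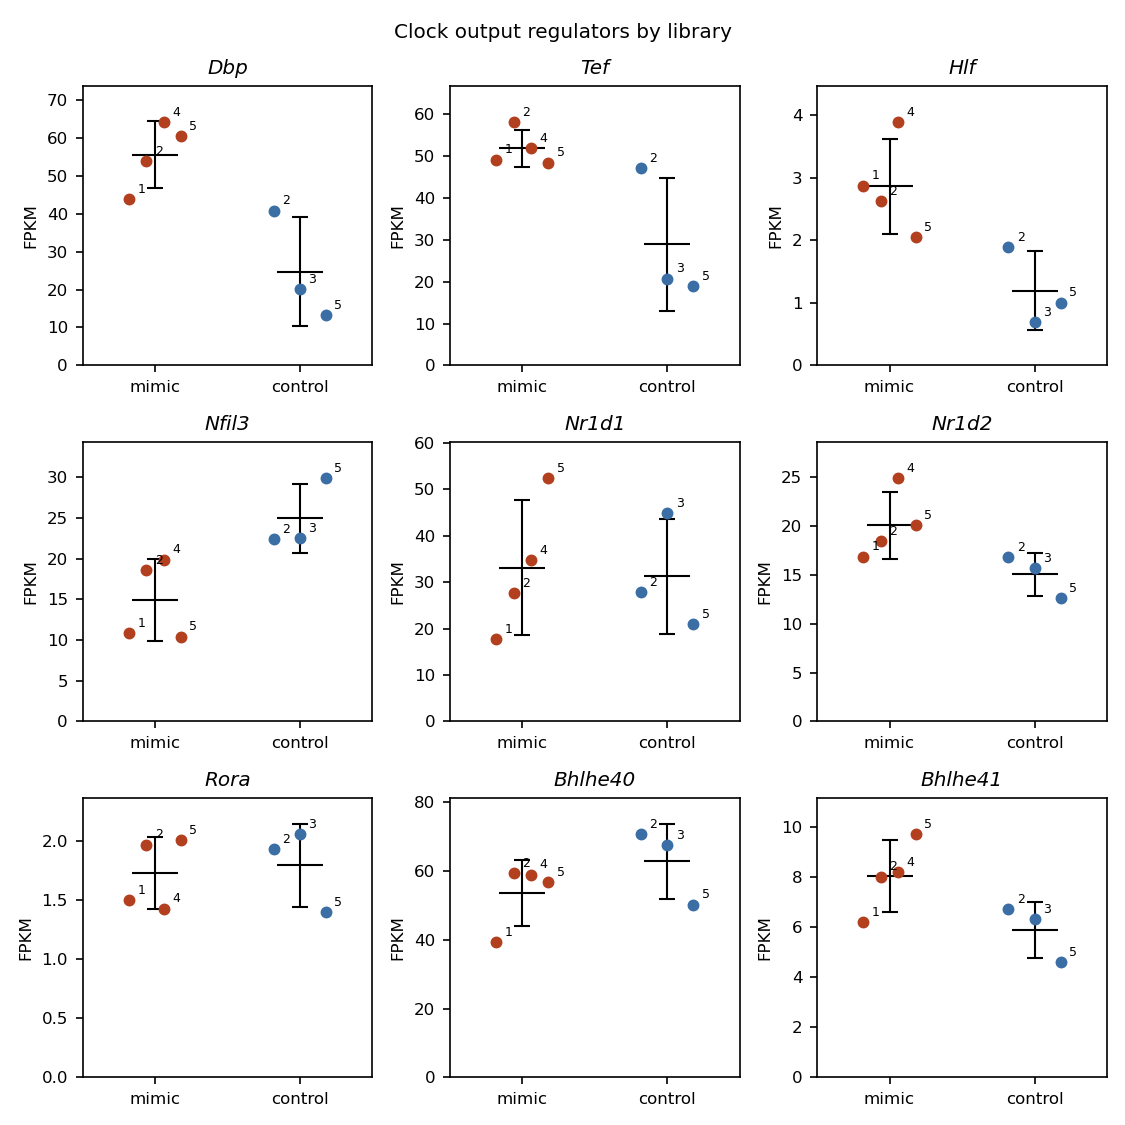
FPKM (y axis, from 0) of the 9 genes in mimic (left, red) and control (right, blue) ankles. Points are libraries with their replicate number, horizontal bars are means and whiskers are SDs (n = 4 and 3). Dbp, Tef and Hlf are low in control replicates 3 and 5, while control replicate 2 lies just under the mimic range, and Nr1d1, Rora, Bhlhe40 and Bhlhe41 overlap between the groups.

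Of the REV-ERB genes, Nr1d1 overlapped between the groups and Nr1d2 was only just separate. Nr1d1, on chromosome 11 at 98767935 to 98775242, stood at 17.8, 27.6, 34.7 and 52.4 FPKM in mimic ankles, against 27.9, 44.9 and 21.0 FPKM in control replicates 2, 3 and 5. Both groups held high and low libraries and overlapped throughout. Its log2 fold change was 0.049 (SE 0.38), with a 95% interval of -0.84 to 0.94, so a difference of either sign was not detectable at this spread. RefSeq extends Thra, a thyroid hormone receptor gene of the opposite strand, to 98769006, across 485 of the exon bases counted for Nr1d1. The counted exons of Thra stop at 98765111, so with no stated strand setting its reads in that stretch could count as Nr1d1. Thra stood at 39.4 FPKM in mimic replicate 5, where Nr1d1 was highest, and at 25.8 to 29.9 FPKM in the other 6 libraries.

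Nr1d2 (chromosome 14, 18204056 to 18239106) stood at 16.9, 18.5, 24.9 and 20.1 FPKM in mimic ankles, against 16.8, 15.7 and 12.6 FPKM in control replicates 2, 3 and 5. Mimic replicate 1 and control replicate 2 were almost equal, so the gap between the groups was minimal, and they overlapped after median-of-ratios scaling of the libraries, which left 4 of the 9 genes separate. The log2 fold change was 0.40 (SE 0.15). Nr1d1 held from 51.3% to 72.3% of the summed REV-ERB level in mimic ankles and from 62.4% to 74.1% in control ankles.

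Rora, the activator at the same element, was the lowest of the 9 genes in mimic ankles. It stood at 1.50, 1.97, 1.43 and 2.01 FPKM in mimic ankles, against 1.93, 2.06 and 1.40 FPKM in control replicates 2, 3 and 5. The ranges nearly coincided, and the log2 fold change was -0.042 (SE 0.15, 95% interval -0.40 to 0.32). The exon bases counted for Rora, 1647 in all (chromosome 9, 68653802 to 69379031), leave out nearly all of a 3 prime UTR that GENCODE gives as 9285 bases, and the level rests on 69 to 101 reads per library.

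Bhlhe40 was abundant and Bhlhe41 scarcer, and their means lay on opposite sides. Bhlhe40 (chromosome 6, 108660629 to 108666925) stood at 39.3, 59.3, 59.0 and 56.9 FPKM in mimic ankles, against 70.7, 67.5 and 50.3 FPKM in control replicates 2, 3 and 5. Mimic replicate 1 was far below the other mimic libraries and control replicate 5 fell among the mimic values, so the groups overlapped, with a log2 fold change of -0.23 (SE 0.18, 95% interval -0.65 to 0.19). It was -0.089 (SE 0.13) without mimic replicate 1 and -0.47 (SE 0.12) with the muscle marker mean as a covariate. Bhlhe41, also on chromosome 6 (145862737 to 145865340), stood at 6.19, 8.01, 8.19 and 9.69 FPKM in mimic ankles, against 6.72, 6.30 and 4.61 FPKM in control replicates 2, 3 and 5. Mimic replicate 1 lay below control replicates 2 and 3, and the log2 fold change was 0.42 (SE 0.17).

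The ratio of Bhlhe40 to Bhlhe41 within a library separated the groups with no overlap, although neither gene did so alone. It was 6.35, 7.41, 7.20 and 5.87 in mimic ankles, against 10.5, 10.7 and 10.9 in control replicates 2, 3 and 5. The means were 6.71 ± 0.72 (SD, n = 4) in mimic ankles and 10.7 ± 0.19 (SD, n = 3) in control ankles, and control replicate 2 stood with the other controls. This ratio was singled out after its values were seen and carries no test. Other ratios were also separate between the groups, such as Dbp over Nfil3 and Nr1d2 over Rora, and others overlapped, such as Nr1d1 over Nr1d2. Bhlhe41 was counted over 1421 exon bases and with 202 to 400 reads per library, so counting error alone is up to 7.04%.

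**Figure D2:**
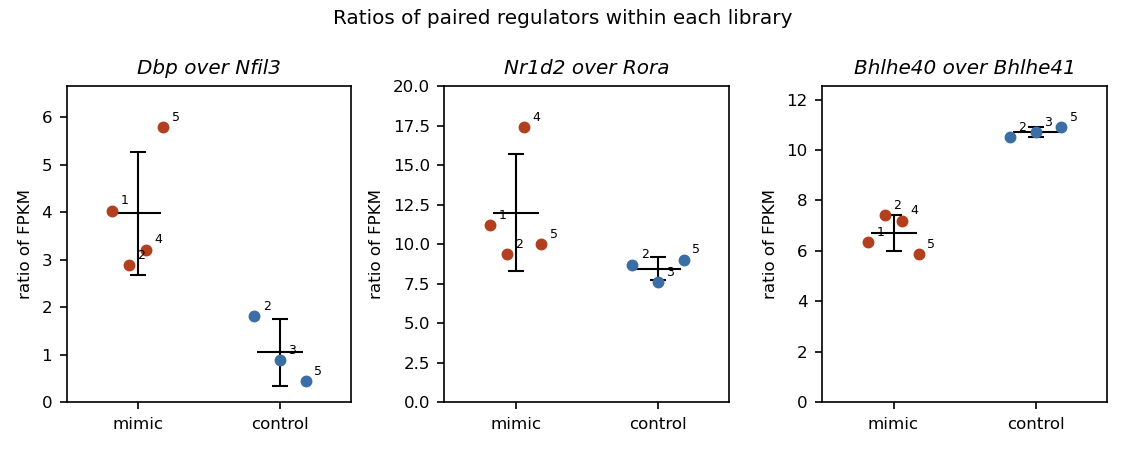
Ratio of FPKM values (y axis, from 0) within each library for Dbp over Nfil3, Nr1d2 over Rora and Bhlhe40 over Bhlhe41, in mimic (left) and control (right) ankles. Points are libraries with their replicate number, bars are means and whiskers SDs. The DEC ratio lies between 5.87 and 7.41 in mimic ankles and between 10.5 and 10.9 in control ankles.

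By mean level per exon length, the order in mimic ankles was Dbp (55.5 FPKM), Bhlhe40 (53.6), Tef (51.9), Nr1d1 (33.1), Nr1d2 (20.1), Nfil3 (15.0), Bhlhe41 (8.02), Hlf (2.86) and Rora (1.73). From Dbp down to Nfil3, the ranges of neighbours in this order overlapped, and from Nfil3 down to Rora they did not. In control ankles the order was Bhlhe40 (62.8 FPKM), Nr1d1 (31.3), Tef (28.9), Nfil3 (25.0), Dbp (24.7), Nr1d2 (15.0), Bhlhe41 (5.88), Rora (1.80) and Hlf (1.19). There the ranges of neighbours from Nr1d1 down to Nr1d2 overlapped, as did those of Rora and Hlf, while Bhlhe40 lay above Nr1d1, and Bhlhe41 lay below Nr1d2 and above Rora.

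Over all genes, limma called 0.0% of 13418 genes at an adjusted p under 0.05, so 0 of the 9 genes were called, and with limma-voom on recovered reads the count was also 0. At an unadjusted p under 0.05, limma had 2356 genes (17.6%), among them 6 of the 9. The groups did not overlap for 5 of the 9, with Dbp, Tef, Hlf and Nr1d2 higher and Nfil3 lower in mimic ankles, while 15.3% of all tested genes did not overlap. The median log2 fold change was 0.40 over the 9 genes and -0.0063 over all genes tested. Since the 9 were proposed from this comparison, nothing is read from these counts.

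The calls depended on control replicate 2. Without it, limma called 318 genes (2.37% of those tested), 115 higher (0.857%) and 203 lower (1.51%) in mimic ankles, and 3 of the 9 genes, Dbp, Tef and Hlf, were among those higher. Their log2 fold changes were then 1.72 (SE 0.21, limma adjusted p = 0.0302), 1.36 (SE 0.091, adjusted p = 0.0207) and 1.30 (SE 0.22, adjusted p = 0.0470). Only control replicates 3 and 5 were left in the control group, and the library taken out was the highest control for each of these 3 genes. Its removal had to raise their fold changes, so these p-values are not read as a test. Nfil3 stood at -0.84 and Nr1d2 at 0.48 in that fit, neither called. Leaving out control replicate 5, the library with epidermal transcripts, gave 0.93 for Dbp, 0.71 for Tef and 0.97 for Hlf, and 0 of the 9 genes were called.

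Muscle marker sums were 2835, 9078, 4970 and 10707 FPKM in mimic replicates 1, 2, 4 and 5, against 7238, 3485 and 1213 FPKM in control replicates 2, 3 and 5. In control ankles they ran in the same order as Dbp and Tef, and in mimic ankles they did not. With the muscle marker mean as a covariate, the log2 fold changes were 0.82 for Dbp (SE 0.21), 0.62 for Tef (SE 0.24) and 0.95 for Hlf (SE 0.32). Nfil3 had -0.69, and Nr1d1 turned to -0.31. In that fit 0 of the 9 genes were called. The parts of the adipocyte, neutrophil, osteoblast and osteoclast markers in these differences were not tested.

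**Figure D3:**
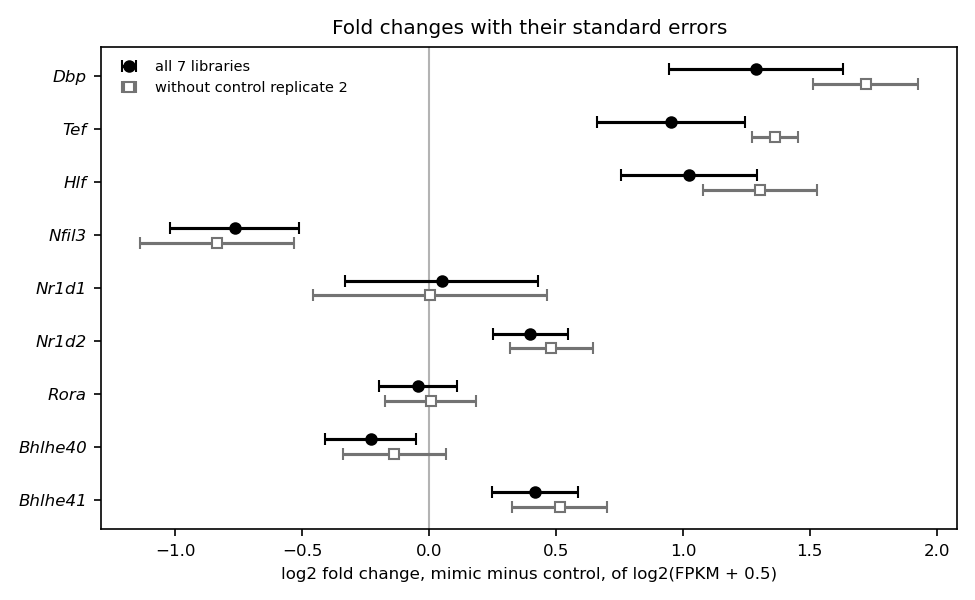
Log2 fold change of each gene, mimic minus control, on the log2(FPKM + 0.5) scale (x axis) with its standard error, from all 7 libraries (filled circles) and without control replicate 2 (open squares). Dbp, Tef and Hlf lie between 0.95 and 1.29 with all libraries and between 1.30 and 1.72 without that one, while Nr1d1 and Rora lie at 0 within their errors in both.

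Genes of the central loop were read from a list of 12, of which 11 passed the filter. limma called 0 of them in either direction, 8 had a higher and 3 a lower mean in mimic ankles, and the median log2 fold change was 0.22, which ran from 0.11 without control replicate 3 to 0.46 without control replicate 2. Ciart, a repressor of CLOCK and BMAL1, stood at 2.91 ± 0.62 FPKM in mimic ankles and 1.52 ± 0.41 FPKM in control ankles (SD, n = 4 and 3), a log2 fold change of 0.76 (SE 0.19) that rests on 43 reads in the poorest library. Per3, a period gene, stood at 15.1 ± 2.18 FPKM in mimic ankles and 7.39 ± 3.68 FPKM in control ankles, with a log2 fold change of 1.07 (SE 0.27). These were the 2 genes of the list whose groups did not overlap, both higher in mimic ankles. Of all tested genes, 6.48% were separate in that direction. This list too was chosen with earlier results of these data known, so nothing is read from the count. Per2 had a log2 fold change of 1.04 (SE 0.34) with overlapping groups, and Per1, which answers to light and hormones as well as to the clock, had 0.22 (SE 0.46).

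The 3 genes of the list with lower means in mimic ankles, Arntl, Npas2 and Clock, encode activators. Arntl stood at 2.73, 2.72, 1.51 and 3.98 FPKM in mimic ankles, against 3.06, 5.72 and 4.89 FPKM in control replicates 2, 3 and 5. The highest values were those of control replicates 3 and 5, the libraries with the lowest Dbp, and the groups overlapped, with a log2 fold change of -0.66 (SE 0.29). Npas2 and Clock, named after their values were seen as the partners of BMAL1, had -0.80 (SE 0.30) and -0.26 (SE 0.12). The ratio of Dbp to Arntl was 15.2 to 42.3 in mimic ankles, against 13.3, 3.52 and 2.71 in control replicates 2, 3 and 5. Without control replicate 2, Per3 (1.43, limma adjusted p = 0.0219) and Cry2, a cryptochrome named after its value was seen (0.81, adjusted p = 0.0302), were the 2 genes of the list that were called, both higher.

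**Figure D4:**
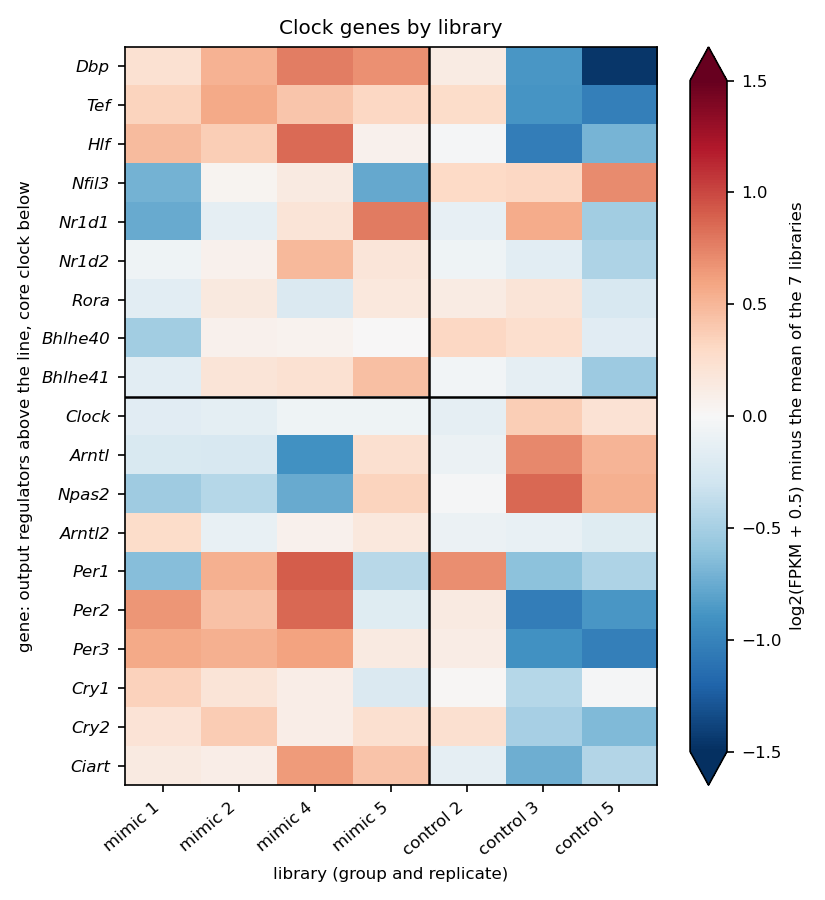
Log2(FPKM + 0.5) of each gene (rows) in each library (columns, mimic left and control right of the line), as its difference from the mean of the 7 libraries (colour). In control replicates 3 and 5, Dbp, Tef, Hlf, Per2 and Per3 lie below, and Arntl and Npas2 above, their means.

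Among 12 kinases, ligases and cofactors of clock proteins, 10 were tested, 0 were called, and the median log2 fold change was -0.018. The 3 with the smallest p were Nrip1, a nuclear receptor corepressor (-0.23, SE 0.15), Hdac3, the deacetylase through which REV-ERB represses (0.10, SE 0.074), and Gsk3b, a clock kinase (-0.082, SE 0.065). Their groups overlapped.

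Of 12 outputs that cycle in many tissues, 0 were called, 6 had a higher and 6 a lower mean in mimic ankles, and the median was 0.051. Nampt, the enzyme of NAD salvage, had a difference of 0.20 on the log2 scale (SE 0.081), and Hmox1, a heme oxygenase, one of -0.57 (SE 0.28), both with overlapping groups. Hmox1 stood at 224 FPKM in control replicate 3, against 94.2 and 105 FPKM in control replicates 2 and 5, and without replicate 3 its difference was -0.18 (SE 0.11).

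Inflammatory genes that REV-ERB proteins are reported to repress in macrophages and other cells had lower means in mimic ankles for all 7 tested of 8. The gene below the filter, Il12b, named after its values were seen, had a higher mean in mimic ankles (0.52 against 0.30 FPKM). The median over the 7 tested genes was -0.77 (log2), and limma called 0. For 5 of the 7 the groups did not overlap, where 8.84% of all tested genes were separate in that direction. The list was chosen with earlier results of these data known, so nothing is read from these counts. Mmp9, a gelatinase, stood at 341 ± 21.9 FPKM in mimic ankles and 475 ± 21.6 FPKM in control ankles, and Il1b, an inflammatory cytokine, had a log2 fold change of -1.25 (SE 0.27). Nlrp3, an inflammasome sensor, had -0.77 (SE 0.17). In the same libraries the Nr1d1 level overlapped between the groups and the Nr1d2 level was barely separate. These are RNA levels of the whole ankle. REV-ERB protein and activity were not measured, and a part of REV-ERB in these differences was not tested. The 8 neutrophil markers and the 5 osteoclast markers, one of which is Mmp9, also had lower means in mimic ankles, and their part was not tested. Without control replicate 2, Ccl2, a monocyte chemokine named after its value was seen, was the 1 gene of this list that was called, lower in mimic ankles (log2 fold change -2.09, limma adjusted p = 0.0219), against -1.61 (SE 0.36) and no call with all libraries.

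The mimic's own sequence was compared with the transcripts of the 9 genes. The mature microRNA is printed with its seed, bases 2 to 8, in capitals (RefSeq, GRCm38.p6, chromosome 14), and below it the strongest match found in each of 4 genes, in the longest 3 prime UTR of GENCODE M21, with capitals on the letters that pair with the seed and, in an 8mer, the A beside them.
miR-17-5p: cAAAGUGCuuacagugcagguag
Hlf, 8mer, chr11:90340650-90340679, minus strand: ttctgacatcaGCACTTTAccagaggcata
Tef, 7mer, chr15:81824938-81824966, plus strand: ccctcacagctGCACTTTtctcttctatt
Bhlhe41, 8mer, chr6:145862174-145862203, minus strand: cgcctttgctcGCACTTTAttgacaaattg
Rora, 7mer, chr9:69379633-69379661, plus strand: gaattgataagGCACTTTccgtttttgca

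The 8mer GCACTTTA stood in the UTRs of 2 of the 9 genes, Hlf and Bhlhe41, while 4.22% of 12489 tested genes with a UTR held it. An 8mer or one of the 7mers, GCACTTT and CACTTTA, stood in 4 of the 9 and in 21.4% of those genes. These 4 have the longest UTRs of the 9, at 3182 to 9285 bases, against 269 to 2631 bases in the rest. A longer UTR has more places for a match, and the shares were not matched for length. Nothing is read from these counts. Nr1d2 held 1 match to the shorter CACTTT, and Dbp, Nfil3, Nr1d1 and Bhlhe40 none. Of the 4 genes with an 8mer or 7mer, Hlf, Tef and Bhlhe41 had higher means in mimic ankles (log2 fold changes of 1.02, 0.95 and 0.42). Rora had a slightly lower one (-0.042). The genes without an 8mer or 7mer also lay on both sides. Dbp (1.29), Nr1d2 (0.40) and Nr1d1 (0.049) had higher means. Nfil3, with an annotated UTR of 269 bases, and Bhlhe40 had lower ones (-0.77 and -0.23). Whether the matches bear on these differences was not tested. The exons counted for Rora and Bhlhe41 take in only 0.754% and 2.5% of the UTR searched and do not hold these sites. The level of the mimic itself was not measured here.

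The genes whose pattern over the 7 libraries was most like that of Dbp were picked by Pearson's r of log2(FPKM + 0.5), as a description without a test, since the highest of 13417 values were taken. Cd1d1, an antigen-presenting molecule, had r = 0.996, Dnajc18 0.988, Tst, a mitochondrial sulfur transferase, 0.987, Selenbp1 0.985 and Mettl27 0.985. Their Spearman's rho lay between 0.89 and 1. Cd1d1 had the same order of libraries as Dbp, at 15.1, 15.7, 16.8 and 16.5 FPKM in mimic ankles, against 15.0, 12.2 and 11.4 FPKM in control replicates 2, 3 and 5, over a far narrower range. At the other end were Vps36, of the ESCRT sorting machinery (-0.994), Afg3l1 (-0.991), Ckap4 (-0.990), Gorasp2, of the Golgi (-0.985), and Smu1, a splicing factor (-0.985). Among clock genes Tef was closest to Dbp, at rank 37 (r = 0.957), with Per3 at rank 132 and Cry2 at rank 148. Nr1d2 stood at rank 359, Bhlhe41 at rank 401 and Hlf at rank 501, whereas Nr1d1 stood at rank 5275 (r = 0.25). All these values share the same 7 libraries.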

How the data were processed

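Per the file headers, the authors deposited FPKM per gene and library with exon positions and joined exon length. The builds mm10 and GRCm38 and the tools STAR 2.5.2b, Subread, featureCounts, bcl2fastq 2.20 and DESeq2 1.14.1 stand in the submitters' processing notes without their roles. Strand setting, library kit and annotation release were not given in the sources used here. FPKM times length gave whole reads, within 0.01 of a read, for 100% of values, which set the depth. Counting errors, 1 over the square root of the reads, cover read sampling only. Symbols came from RefSeq (GRCm38.p6) for 25275 of 27179 genes.

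limma 3.58.1 in R 4.3.3 (lmFit, eBayes with a trend) was run on log2(FPKM + 0.5) over the 13418 genes that averaged 1 FPKM or more, with group as the single factor and 2-sided Benjamini-Hochberg adjustment at 0.05. The pseudocount understates the change of low genes. The code of the fit was checked on simulated reads, drawn independently with known folds. Those reads hold no differences in tissue make-up between libraries, so the check does not bear on such differences here. Members and lists were chosen with earlier results of these data known. Named genes were the 9 members, the 3 smallest p of each list (1 of these is not reported here), Arntl, Per1, Per2, Per3 and Ciart, the 5 most and 5 least like Dbp (passing over predicted genes and pseudogenes), genes overlapping a member, and others chosen after their values were seen (Clock, Npas2, Cry2, Ccl2 and Thra). Alternatives were pseudocounts of 0.1 and 1, median-of-ratios scaling, no filter on low values or one at 5 FPKM, a replicate block, a muscle covariate, limma-voom on recovered reads, and each library left out. Python 3.11.15, pandas 2.3.3 and matplotlib 3.10.9 were used.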

Additional observations from a re-analysis of the deposited data

Results flagged for a closer look

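In 4 of 39 genes examined, a single mimic library lay farther from the other 3 than Dixon's 95% limit for 4 values, where chance gives about 1 in 20. Bhlhe40 was lowest in mimic replicate 1, at 39.3 FPKM, with a gap of 0.878 of the range. Nrip1 was lowest in the same library, at 2.51 FPKM (0.844 of the range). Per3 was lowest in mimic replicate 5, at 11.9 FPKM (0.834 of the range). Thra was highest in mimic replicate 5, at 39.4 FPKM (0.924 of the range).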

How the results depend on the processing

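Over 133 values of the 9 genes under 15 alternatives, 121 kept their direction and stayed uncalled, 3 became called (Dbp, Tef and Hlf without control replicate 2) and 9 changed sign, all of Nr1d1 and Rora. Hlf and Rora have no value with a mean of at least 5 FPKM. Nr1d1 had -0.31 with the muscle covariate, 0.64 (SE 0.38) with the replicate block, and -0.20 to 0.34 over the fits that each leave out a library. Rora had 0.21 with the replicate block, and -0.17 to 0.041 over the fits with a library left out. Per1 had -0.13 with the muscle covariate and -0.056 with the replicate block, and -0.048 to 0.63 with a library left out. Thra had a log2 fold change of 0.071 with all libraries, -0.050 with the muscle covariate and -0.069 to 0.13 with a library left out. Bhlhe40 had -0.036 with the replicate block, and with the muscle covariate Bhlhe41 had 0.18 and Nr1d2 0.27. The count of genes called was 0 to 318 and of the 9 genes 0 to 3 with a library left out, the upper values without control replicate 2. With no filter on low values 1 gene was called, the small RNA gene Scarna2, listed at 0 in all mimic ankles and at 0.53 to 0.60 FPKM in control ankles, and named after its value was seen. The central loop's median was 0.54 under the filter at 5 FPKM. The median of the cycling outputs was -0.047 with a mean of at least 5 FPKM, -0.0073 with the replicate block and -0.033 to 0.14 with a library left out. The cause of these shifts was not tested. Only replicate numbers 2 and 5 occur in both groups, and their libraries' deviations correlated at 0.54 and -0.43, so the numbers were not taken as pairs. In the replicate block, a number found in only 1 group adds nothing to the difference between the groups. Every value given for that fit therefore rests on the libraries numbered 2 and 5 alone, compared as if they were pairs. Hlf had 0.58 there, and 0 genes were called. With so few libraries contributing, a call was unlikely, so nothing is read from that count. Among the 9 genes, Rora and Hlf had the fewest reads, 69 and 107 in their poorest libraries.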
